A study of Mus musculus with 12 samples.

Results

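The 10 genes of iron handling, counting erythropoietin among them, were followed in kidney cortex of a mouse that expresses an active form of the transcription factor HIF1α. They are the 10 of the 37681 genes in the deposited table whose Ensembl identifier maps to Epo, Tfrc, Trf, Cp, Hmox1, Slc40a1, Slc11a2, Fth1, Ftl1 or Heph, and all 10 had enough reads to be tested. The TRACK transgene (γ-HIF1αM3) places a constitutively active, mutant HIF1α under the γ-glutamyl transferase (GGT) promoter, so it is meant for the proximal tubule and not for the other cells of the cortex. RNA came from a thin outer slice of cortex of untreated C57BL/6 males, 18 months old, with 3 transgenic mice (TG+, numbered 43-29, 43-49 and 43-75) and 3 wild-type littermates (TG-, numbered 43-26, 43-50 and 43-76). Both kidneys of each mouse were sequenced, which gave 12 libraries, and the 2 kidneys were summed so that the mouse was the unit.

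Between 48052131 and 60506785 reads per mouse were counted on genes. Levels are given as CPM, counts brought to an equal total per mouse with edgeR's TMM factors, which correct for library composition and lay between 1.03 and 1.065 in TG+ and between 0.944 and 0.968 in TG-. Hif1a itself stood at 91.7, 109.0 and 86.3 CPM in TG+ and at 106.6, 103.0 and 102.6 CPM in TG- (log2 fold change -0.12, edgeR quasi-likelihood adjusted p = 0.343), and the sources used here do not say if transgene reads fell on this gene. The markers of proximal tubule that define the tissue were abundant in every mouse, with Kap, an androgen-regulated tubule protein, at 14270 to 17480 CPM. In such bulk tissue fewer cells of a type and less RNA per cell cannot be told apart.

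Iron circulates bound to transferrin (Trf) and enters cells through the transferrin receptor (Tfrc). It leaves the endosome through Slc11a2 (DMT1), is stored in ferritin (Fth1 and Ftl1), and leaves the cell through ferroportin (Slc40a1), after which the ferroxidases ceruloplasmin (Cp) and hephaestin (Heph) oxidise it for loading onto transferrin. Heme oxygenase 1 (Hmox1) frees iron from heme, and erythropoietin (Epo), made by interstitial cells of the kidney, drives the red cell formation that uses most iron. Several of these genes are textbook targets of the HIF proteins, which bind the letters ACGTG or GCGTG. Several are also ruled after transcription by iron regulatory proteins, which bind a hairpin, the iron-responsive element. In a 5′ UTR its binding blocks translation, which RNA levels do not measure, and in the 3′ UTR of Tfrc it protects the RNA.

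The hairpin is shown because both ferritin genes, Slc40a1 and Tfrc each hold its letters. It was searched in UTRs of GENCODE M21 coding transcripts (GRCm38) as a C, any 5 bases, CAGTGN and 5 bases that pair with the first 5, G to T included. Matches stood in 160 of 21901 genes (0.731%), and 4 of the 10 members held one. The capitals mark the unpaired C and the loop.
Fth1 (5′ UTR, chr19:9982732-9982760, plus strand): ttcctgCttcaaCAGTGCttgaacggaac
Ftl1 (5′ UTR, chr7:45459779-45459807, minus strand): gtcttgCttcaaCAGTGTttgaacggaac
Slc40a1 (5′ UTR, chr1:45925465-45925493, minus strand): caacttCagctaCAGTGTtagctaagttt
Tfrc, element 1 (3′ UTR, chr16:32631219-32631247, plus strand): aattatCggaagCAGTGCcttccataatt
Tfrc, element 2 (3′ UTR, chr16:32631598-32631626, plus strand): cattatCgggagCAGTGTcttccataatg
Tfrc, element 3 (3′ UTR, chr16:32631663-32631691, plus strand): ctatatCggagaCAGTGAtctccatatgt
Tfrc, element 4 (3′ UTR, chr16:32631710-32631738, plus strand): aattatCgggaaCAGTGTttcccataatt
No match in the other 6 members says only that these letters were not in the transcripts searched.

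Set against the wild-type cortex, the TG+ cortex held more RNA of the ferroxidase Cp, of Hmox1, of Trf and of the exporter Slc40a1, and less RNA of both ferritin subunits. Cp rose 2.14-fold and Hmox1 2.07-fold, and both passed the threshold of the study, which asks for an adjusted p under 0.01 and a fold above 2 (or under 0.5 for a fall). SE stands for the standard error of a log2 fold change, and every adjusted p is edgeR's, over all tested genes. Trf rose 1.75-fold and Slc40a1 1.29-fold, while Ftl1 fell by 0.38 and Fth1 by 0.22 on the log2 scale, at an adjusted p below 0.05. Epo, Heph, Slc11a2 and Tfrc did not pass, and the call of Fth1 was lost in 9 of 14 alternative analyses. At the threshold of the study this made 2 members higher and 0 lower, where 3.77% of the 19399 tested genes were higher and 0.211% lower. At an adjusted p below 0.05 without a fold limit 4 members were higher and 2 lower, against 15.4% and 10.9% of all tested genes. The median log2 fold change of the 10 was 0.28, and that of all genes was 0.01.

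**Figure D1:**
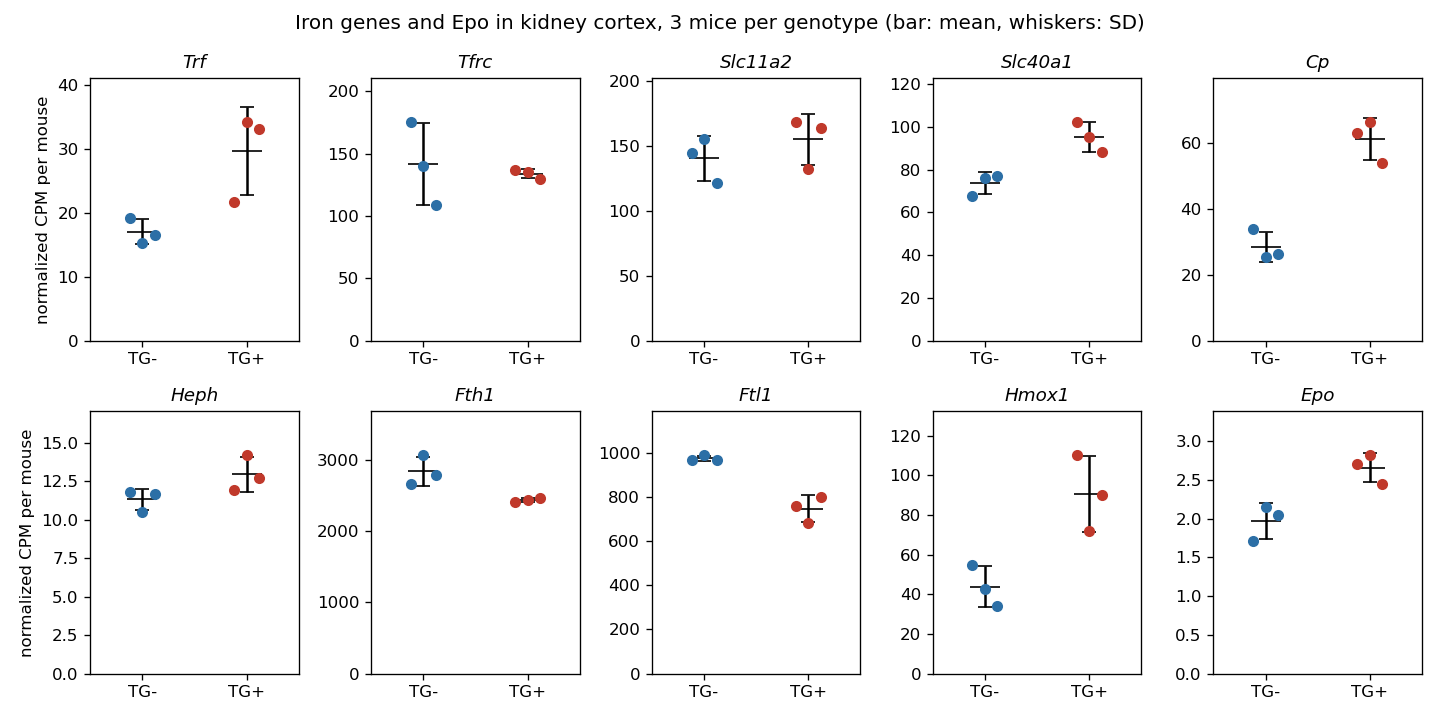
Normalized CPM (vertical axes, from 0) of each of the 10 genes in the 3 TG- mice (blue) and the 3 TG+ mice (red), with the mean as a bar and the SD as whiskers. Tfrc and Slc11a2 are the 2 genes whose groups overlap, and the ferritin genes Fth1 and Ftl1 are the 2 whose TG- mice all lie above the TG+ mice.

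**Figure D2:**
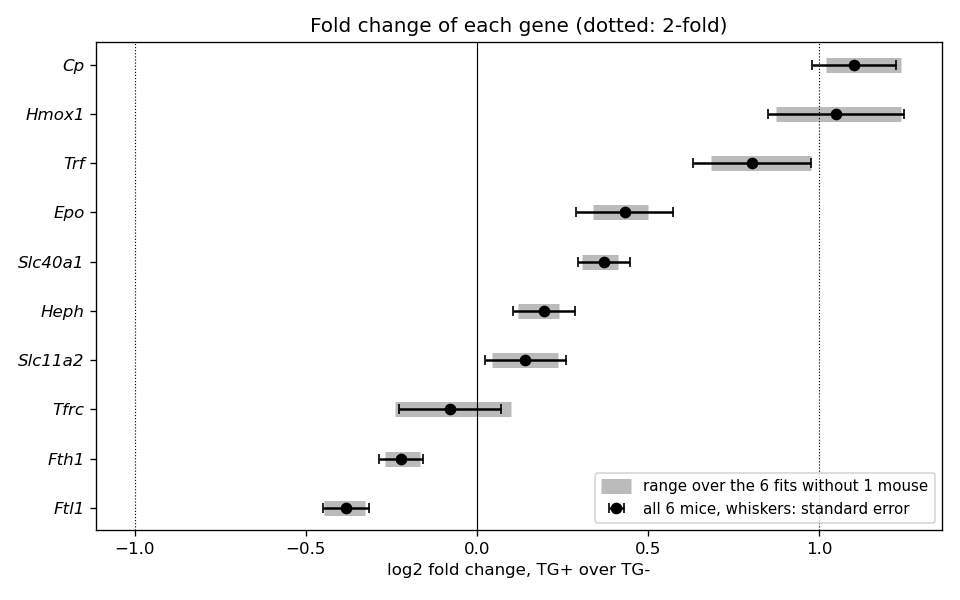
Log2 fold change of TG+ over TG- (horizontal axis) with its SE from edgeR's quasi-likelihood fit on all 6 mice, and in grey the range over the fits that leave out 1 mouse. Cp and Hmox1 lie just above 2-fold (dotted line), and the grey range of Tfrc crosses 0.

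Transferrin, the plasma carrier of iron, was counted at 21.7, 34.3 and 33.1 CPM in the TG+ mice and at 19.2, 15.4 and 16.5 CPM in the TG- mice. The TG+ mouse 43-29 was the lowest of its group and stood just above the highest TG- mouse. The means were 29.7 ± 6.93 CPM and 17.03 ± 1.97 CPM (SD, n = 3 mice each), a log2 fold change of 0.80 (SE 0.17, edgeR quasi-likelihood adjusted p = 0.0124). Trf (GRCm38 chr9:103204001-103230444) overlaps the annotated gene Gm20425, whose own log2 fold change was 0.47 (adjusted p = 0.0144 in the same edgeR fit). Whether the counting used strand is not given in the sources used here, so the values of overlapping genes are uncertain.

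The transferrin receptor Tfrc was measured at 136.6, 135.1 and 129.9 CPM in TG+ and at 175.3, 140.4 and 109.0 CPM in TG-. The TG+ mice all lay inside the range of the TG- mice, whose SD of 33.2 CPM was larger than the 3.50 CPM of TG+. The log2 fold change was -0.08 (SE 0.15, edgeR quasi-likelihood adjusted p = 0.736), and its sign turned without the TG- mouse 43-26 (0.10) and with scaling by library size alone (0.04). Tfrc is the member with 4 hairpin matches in its 3′ UTR.

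Slc11a2, the transporter that moves ferrous iron out of endosomes, stood at 168.2, 132.3 and 164.0 CPM in TG+ and at 144.6, 155.4 and 121.3 CPM in TG-. The groups overlapped, and the log2 fold change of 0.14 had a SE of 0.12 (edgeR quasi-likelihood adjusted p = 0.42).

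Ferroportin, Slc40a1, the only known exporter of iron from cells, stood at 102.3, 95.4 and 88.4 CPM in the TG+ mice and at 67.9, 76.2 and 77.2 CPM in the TG- mice. Every TG+ mouse was above every TG- mouse. The rise was small, 0.37 on the log2 scale (SE 0.08, edgeR quasi-likelihood adjusted p = 0.0103), and it stayed below the fold limit of the study. Such separation of 3 mice from 3 was seen in 23.4% of all tested genes with TG+ above and in 20.8% with TG- above. Among the 10 members 6 had all TG+ mice above and 2 had all TG- mice above. The exact permutation test over the 20 assignments of mice gave p = 0.1 (2-sided) for each of those 8, which is the smallest p that 3 against 3 can reach.

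Ceruloplasmin, the plasma ferroxidase, had the lowest adjusted p among the members. Cp was counted at 63.3, 66.5 and 54.0 CPM in TG+ and at 33.9, 25.4 and 26.5 CPM in TG-. The lowest TG+ mouse stood well above the highest TG- mouse. The means of 61.3 ± 6.47 and 28.6 ± 4.60 CPM (SD, n = 3 mice each) gave a log2 fold change of 1.10 (SE 0.12, edgeR quasi-likelihood adjusted p = 8.00e-04). Cp passed the threshold of the study in all 14 alternative analyses, and its neighbour Hps3, whose annotation overlaps it, had a log2 fold change of -0.10 (adjusted p = 0.202). Hephaestin, the membrane-bound ferroxidase, stood at 11.9, 14.2 and 12.7 CPM in TG+ and at 11.8, 10.5 and 11.7 CPM in TG-. The groups of Heph were narrowly apart, and the log2 fold change of 0.19 did not pass (SE 0.09, edgeR quasi-likelihood adjusted p = 0.15).

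The genes whose log2 CPM followed Cp most closely over the 6 mice, among 16179 genes with at least 1 CPM, were Flt1 (a receptor of VEGF on endothelium, Pearson r = 0.998), Gimap8 (0.998) and Cers4 (a ceramide synthase, 0.998). These 6 mice form 2 groups, so such a correlation largely repeats the difference between the genotypes, and it is given as a description.

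Ferritin, the store of iron, went the other way. The heavy subunit Fth1, which carries the ferroxidase site, was counted at 2402, 2432 and 2462 CPM in TG+ and at 2659, 3063 and 2788 CPM in TG-. The TG- mice were all higher, and the log2 fold change was -0.22 (SE 0.06, edgeR quasi-likelihood adjusted p = 0.0389). The call was lost in 9 of 14 alternatives. Scaling by library size alone gave -0.10 (adjusted p = 0.202), whereas the other 8 gave -0.17 to -0.24, among them the block for neighbouring mouse numbers (-0.22, adjusted p = 0.0659).

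The light subunit Ftl1, which favours the mineral core, stood at 760.6, 682.9 and 799.2 CPM in TG+ and at 967.7, 989.8 and 969.3 CPM in TG-. The groups were far apart beside an SD of 59.2 CPM in TG+ and 12.3 CPM in TG-. The log2 fold change of -0.38 (SE 0.07, edgeR quasi-likelihood adjusted p = 0.00566) kept an adjusted p below 0.05 in all 14 alternatives. Ftl1 has near-identical copies, so the split of its reads is uncertain. Of the reads on Ftl1 and the copies Ftl1-ps1 and Ftl2-ps, Ftl1 took between 63.4% and 64.5% in every mouse. Summed, the 3 genes stood at 1171 ± 97.1 CPM in TG+ and at 1525 ± 22 CPM in TG- (SD, n = 3 mice each, exact permutation p = 0.1, 2-sided). The small gene Gm22133, which lies within Ftl1, had a log2 fold change of -0.38 as well.

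Heme oxygenase 1, which opens the heme ring and releases its iron, was counted at 110.2, 71.9 and 90.0 CPM in TG+ and at 54.9, 42.9 and 33.9 CPM in TG-. Hmox1 varied among mice of a genotype more than the other called members in TG- (SD of log2 CPM 0.349), yet the groups did not overlap. The log2 fold change was 1.05 (SE 0.20, edgeR quasi-likelihood adjusted p = 0.00767). The threshold of the study was missed when 43-29, 43-75, 43-50 or 43-76 was left out, with log2 fold changes over the 6 such fits from 0.87 to 1.24 and an adjusted p of up to 0.0293.

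Erythropoietin was rare, with 134, 160 and 123 reads in the TG+ mice and 88, 123 and 100 reads in the TG- mice. As CPM this was 2.71, 2.82 and 2.45 against 1.72, 2.15 and 2.05. All TG+ mice were above all TG- mice. The log2 fold change of Epo was 0.43 with a SE of 0.14, and it missed an adjusted p of 0.05 in edgeR's quasi-likelihood test (adjusted p = 0.0593). The analyses that moved it past that limit were scaling by library size alone (0.55, adjusted p = 0.0248) and each kidney as its own library (0.44, adjusted p = 0.00415). The second counts the 2 kidneys of a mouse as independent. In GENCODE M21 the span of Epo (chr5:137483020-137533242) takes in Gigyf1, Gm17112, Gnb2 and Pop7, whose log2 fold changes were -0.13, 0.03, 0.08 and 0.06.

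The promoters of Cp, Tfrc and Epo are shown as examples, since Cp is the 1 member called higher for which a window was found, each with the letters ACGTG or GCGTG (either strand) in capitals. The windows are those of RefSeq on GRCm38.p6, from 250 bases before to 50 bases after a start site. The letters stood in 14380 of all 32851 such windows (43.8%), and in 5 of the 8 windows found for 5 of the members.
Cp (chr3:19956804-19957103, plus strand): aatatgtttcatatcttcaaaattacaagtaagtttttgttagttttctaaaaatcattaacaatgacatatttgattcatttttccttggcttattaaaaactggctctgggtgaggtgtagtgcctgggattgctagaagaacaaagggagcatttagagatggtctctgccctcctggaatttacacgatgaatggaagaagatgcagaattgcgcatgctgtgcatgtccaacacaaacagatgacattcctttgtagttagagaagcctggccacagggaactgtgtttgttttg
Tfrc (chr16:32608646-32608945, plus strand): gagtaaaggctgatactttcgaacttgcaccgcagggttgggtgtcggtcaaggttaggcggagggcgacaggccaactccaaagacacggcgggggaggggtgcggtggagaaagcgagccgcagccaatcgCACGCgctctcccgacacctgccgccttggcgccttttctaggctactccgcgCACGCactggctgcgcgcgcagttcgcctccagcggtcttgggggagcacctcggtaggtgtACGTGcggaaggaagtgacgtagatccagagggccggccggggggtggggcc
Epo (chr5:137485767-137486066, minus strand): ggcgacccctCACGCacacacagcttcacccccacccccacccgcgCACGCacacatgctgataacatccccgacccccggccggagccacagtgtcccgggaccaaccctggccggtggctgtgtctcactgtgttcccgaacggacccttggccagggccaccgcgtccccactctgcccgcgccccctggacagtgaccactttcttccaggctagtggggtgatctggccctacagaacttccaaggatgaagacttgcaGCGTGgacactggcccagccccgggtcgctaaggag
Cp, with the lowest adjusted p of the 10, held none of these letters in this window or in its second one. Tfrc held 3 matches in the window shown, 117, 64 and 2 bases before the start, and Epo held 2 before the start (240 and 204 bases) and 1 after it (14 bases). The second window of Tfrc held 3 matches, 1 of them shared with the first window. Of the members called lower, Ftl1 held 1 match, 47 bases before the start, and Fth1 held 1 in 1 of its 2 windows, 50 bases before the start. A match is a description of the letters and says nothing of binding in this tissue.

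To set the genes beside each other, CPM was divided by the length of the principal transcript in kilobases. The lengths implied by the authors' own values differ from these (37.4 for Cp over Fth1, against 4.34). The counted region is not given in the sources used here, so the order and ratios between genes are uncertain. In TG- the order ran from Fth1 (3054 CPM per kilobase) and Ftl1 (1008) over Slc11a2 (46.4), Tfrc (29.0), Hmox1 (27.97), Slc40a1 (21.9), Cp (7.10), Trf (6.63) and Epo (2.76) to Heph (2.39). Neighbours whose mice overlapped in that order were Tfrc and Hmox1, Hmox1 and Slc40a1, Cp and Trf, and Epo and Heph. In TG+ Hmox1 came next after ferritin, at 57.8 CPM per kilobase, with a range that overlapped that of Slc11a2 (51.2). Slc40a1 (28.3) and Tfrc (27.4) came next and overlapped each other, ahead of Cp (15.2), Trf (11.6), Epo (3.72) and Heph (2.73). On this scale the ratio of Fth1 to Ftl1 was 3.40 ± 0.27 in TG+ and 3.03 ± 0.18 in TG- (SD, n = 3 mice each, exact permutation p = 0.2, 2-sided).

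The 2 kidneys of a mouse usually lay close together. For Hmox1 they differed by at most 0.08 on the log2 scale, and for Fth1 by at most 0.07. The 2 widest gaps among the members were Cp at 81.8 and 50.1 CPM in the kidneys of the TG+ mouse 43-49, and Trf at 26.5 and 40.2 CPM in those of the TG+ mouse 43-75. For Epo and Heph the widest gaps stood in TG- mice, at 0.37 in 43-76 and 0.34 in 43-26 on the log2 scale. Trf passed the threshold of the study in kidney 2 alone (log2 fold change 1.02, edgeR adjusted p = 0.00654) and not in kidney 1 alone (0.60, adjusted p = 0.0443). Over the 12 libraries the genotypes did not overlap for Epo, Cp, Hmox1 and Slc40a1 (TG+ above, as in 13.7% of all tested genes) and for Fth1 and Ftl1 (TG- above, as in 11.2%). They overlapped for Trf, Tfrc, Slc11a2 and Heph.

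**Figure D3:**
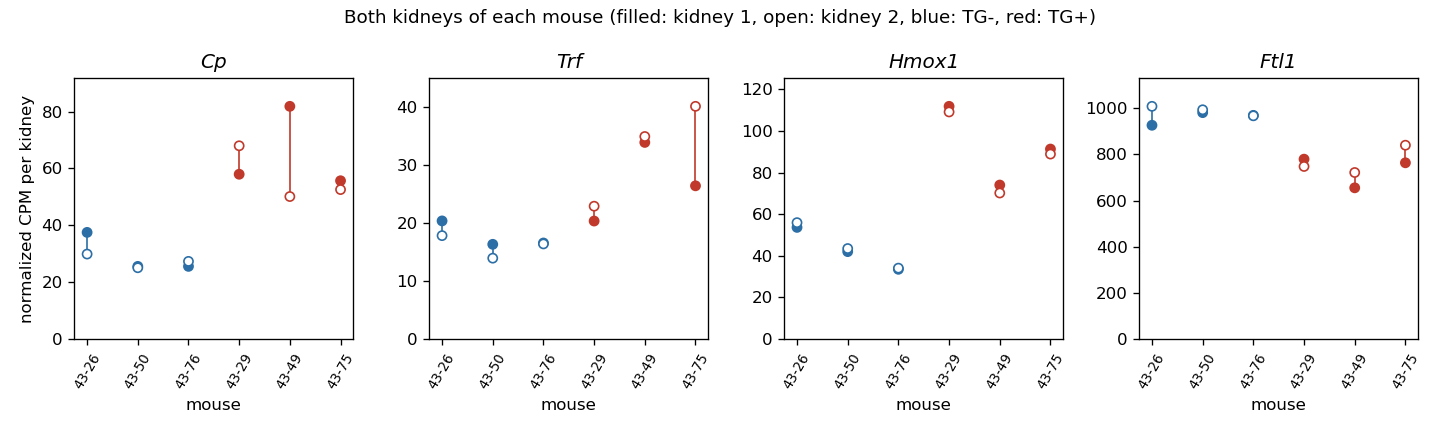
Normalized CPM (vertical axes, from 0) of Cp, Trf, Hmox1 and Ftl1 in kidney 1 (filled) and kidney 2 (open) of each mouse, TG- in blue and TG+ in red, with a line joining the kidneys of a mouse. The kidneys of 43-49 are far apart for Cp and those of 43-75 for Trf, while Hmox1 is nearly the same in both kidneys of every mouse.

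Around these members, 7 wider lists of iron, heme and erythropoietin genes held 108 genes, of which 100 were tested. At the threshold of the study 8 rose and 0 fell, beside 3.77% and 0.211% of all tested genes. At an adjusted p below 0.05 without a fold limit 18 were higher and 29 lower, beside 15.4% and 10.9% of all tested genes, so the 18 lie near that share. These last 2 shares are the background for each list count that follows. The median log2 fold change of the 100 was -0.08. Scaled by library size alone, which moved the median of all genes to 0.13, these became 25 higher and 14 lower with a median of 0.04.

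Among regulators of systemic iron, 4 of 10 tested genes were higher and 0 lower at an adjusted p below 0.05 (15.4% and 10.9% of all genes). Fgl1, a secreted protein of the fibrinogen family known mainly from liver, rose from 0.62, 0.72 and 0.45 CPM in TG- to 17.8, 16.6 and 20.9 CPM in TG+ (log2 fold change 4.93, SE 0.17, edgeR quasi-likelihood adjusted p = 3.50e-06). Tfr2, the second transferrin receptor and a sensor of iron, rose from 0.99, 1.47 and 0.88 CPM to 3.62, 3.16 and 3.74 CPM (1.64 on the log2 scale, adjusted p = 0.00128). Id1, a target of BMP signalling, rose by 1.28 on the log2 scale and Hfe, the hemochromatosis gene, by 0.36. In these 4 genes all TG+ mice were above all TG- mice (23.4% of all tested genes). They were picked because they were called, so this separation adds no support. The hormone hepcidin (Hamp) had 1 read in all 6 mice together and was not tested.

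Of 17 tested genes of iron uptake and reduction 3 were higher and 3 lower, which is near the 15.4% and 10.9% of all genes. Cybrd1, a ferric reductase of the gut surface, rose from 0.96, 1.17 and 1.02 CPM in TG- to 18.7, 11.3 and 16.5 CPM in TG+ (log2 fold change 3.87, SE 0.21, edgeR quasi-likelihood adjusted p = 2.81e-05). Slc39a14 (ZIP14), which carries iron not bound to transferrin, rose from 55.1, 53.3 and 48.5 CPM to 163.7, 127.9 and 120.7 CPM (1.39, adjusted p = 2.12e-04). Steap4, a metalloreductase, rose by 1.66 on the log2 scale. All 3 genes had every TG+ mouse above every TG- mouse (23.4% of all tested genes). Since they were named for passing the threshold of the study, this separation adds no support.

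Heme synthesis leaned the other way, with 8 of 12 tested genes lower and 1 higher (median log2 fold change -0.29). Slc25a38, which brings glycine into mitochondria, stood at 20.5 CPM in each TG+ mouse and at 30.2, 28.5 and 31.1 CPM in TG- (-0.54, edgeR quasi-likelihood adjusted p = 5.99e-04), and Cpox fell by 0.59 on the log2 scale. The 1 gene that rose was Alas2, the erythroid first enzyme (0.75). Iron-sulfur cluster assembly had 9 of 22 genes lower and 1 higher, with Cisd1, an outer mitochondrial membrane protein (-0.33), and the electron carrier Fdx1 (0.44) at the lowest adjusted p. With scaling by library size alone 6 genes of heme synthesis and 2 of iron-sulfur assembly were called lower. Their medians were then -0.17 and -0.03, against -0.29 and -0.15 in the main fit.

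In heme transport and breakdown 3 of 12 tested genes were higher and 4 lower (15.4% and 10.9% of all genes), and scaling by library size alone turned this to 4 higher and 3 lower. Flvcr1, an exporter first described for heme, rose from 19.7, 17.5 and 18.01 CPM in TG- to 39.7, 40.1 and 32.9 CPM in TG+ (log2 fold change 1.03, edgeR quasi-likelihood adjusted p = 2.80e-04), and Blvra, which reduces the biliverdin that Hmox1 makes, fell by 0.45 on the log2 scale. Iron-responsive control and ferritin turnover had 0 genes higher and 4 lower of 12, led by Ftl1-ps1 (-0.38) and the iron chaperone relative Pcbp4 (-0.30). With scaling by library size alone those were 1 higher and 1 lower.

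In the erythropoietin axis 6 of 16 tested genes were higher and 2 lower, and 8 were higher and 1 lower with scaling by library size alone. Of the 3 prolyl hydroxylases that mark HIF for destruction, Egln3 and Egln1 rose by 4.93 and 0.91 on the log2 scale (edgeR quasi-likelihood adjusted p = 3.50e-06 and 1.50e-04), Egln3 from 15.3, 13.0 and 15.2 CPM in TG- to 479.2, 348.6 and 495.6 CPM in TG+. Egln1 passed the limit on p and not that on fold. The other one, Egln2, fell by 0.28 on the log2 scale (53.3 against 64.9 CPM, adjusted p = 0.0062). Epas1, which encodes HIF2α, stood at 240.6, 266.6 and 256.9 CPM in TG+ and at 212.9, 186.3 and 191.8 CPM in TG- (0.37, adjusted p = 0.00743).

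**Figure D4:**
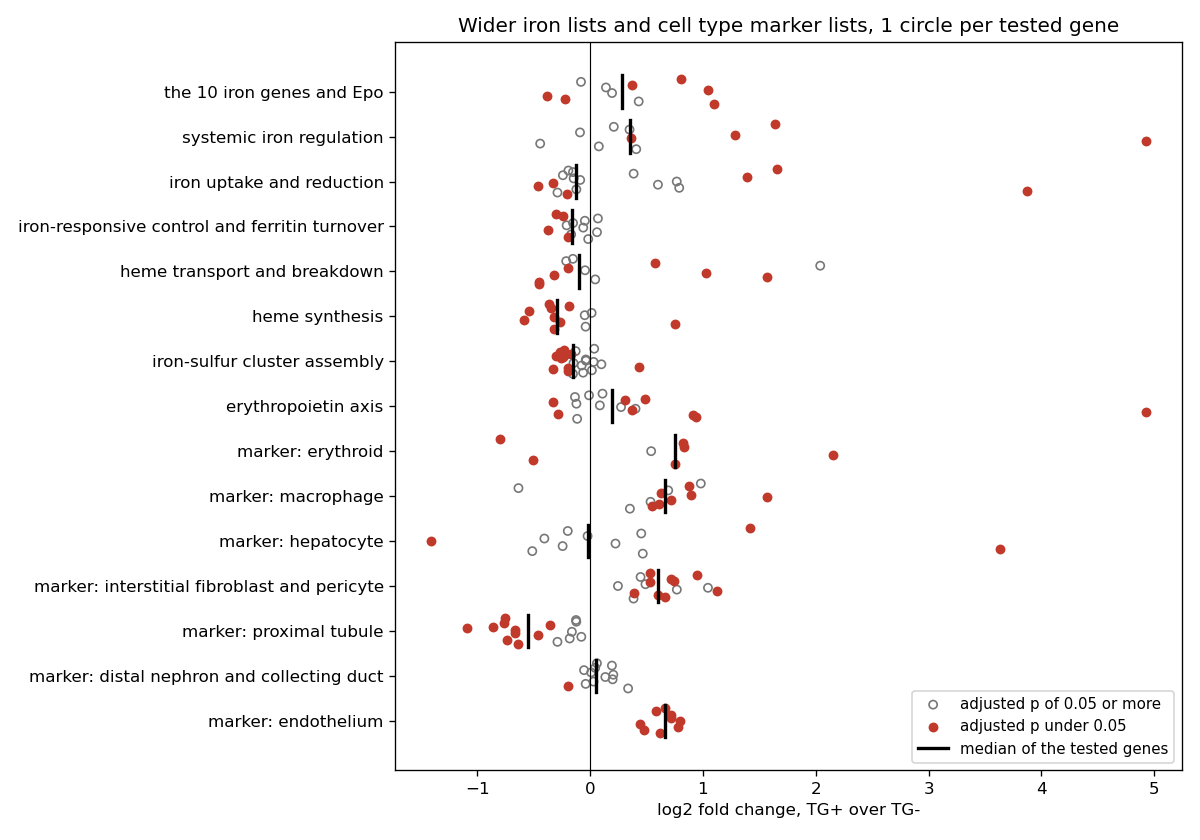
Log2 fold change of TG+ over TG- (horizontal axis) for each tested gene of the 10 members, the 7 wider lists and 7 lists of cell type markers, filled where edgeR's adjusted p was under 0.05, with the median of each list as a bar. Heme synthesis and proximal tubule markers lie mostly below 0, and endothelial and interstitial markers lie above it.

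Levels of cell type markers are given beside these genes, by list. Some genes stand in a wider list and a marker list at once, namely Lrp2 and Cubn (proximal tubule), Alas2 (erythroid) and Cd163 (macrophage). All 9 endothelial markers were higher in TG+ (median log2 fold change 0.66), and their summed level was 825.9 to 889.1 CPM in TG+ and 480.2 to 626.8 CPM in TG-, with Eng the most abundant. Of 12 tested macrophage markers, cells that express Hmox1 and Slc40a1 strongly, 7 were higher and 0 lower (median 0.66, summed level 200.1 to 213.4 CPM against 134.5 to 179.7 CPM), led in abundance by Csf1r. The markers Marco, Vsig4 and Timd4 were too low to test.

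Of 15 interstitial fibroblast and pericyte markers, cell types among which Epo is made, 9 were higher and 0 lower (median 0.60, summed level 585.4 to 636.6 CPM against 350.2 to 431.2 CPM). The most abundant, Nt5e, averaged 162.3 CPM in TG+ and 115.5 CPM in TG- and was not called (edgeR quasi-likelihood adjusted p = 0.0954). Of 16 proximal tubule markers 10 were lower and 0 higher (median -0.55, summed level 34060 to 37130 CPM against 45060 to 48940 CPM), and Slc22a6, an organic anion transporter, fell past the threshold of the study (-1.09). The distal nephron list, led by Umod, had 0 markers higher and 1 lower of 12 (median 0.05), and 4 higher and 0 lower with scaling by library size alone (median 0.17).

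Hepatocyte markers were read because Trf and Cp are made mainly in liver. Of 11 tested, 2 were higher and 1 lower (median -0.02, or 0.10 with scaling by library size alone, summed level 551.3 to 605.5 CPM against 423.7 to 550.9 CPM), with Apoa1 and Ttr past the threshold upwards, Apoh past it downwards and Apob the most abundant. Apob alone stood at 392.5, 451.6 and 468.5 CPM in TG+ and at 370.5, 407.2 and 345.2 CPM in TG-. It thus made up most of the summed level in every mouse. Ahsg, Serpina3k, Tat and Cps1 were too low to test. Of 7 tested erythroid markers 4 were higher and 2 lower (median 0.75, summed level 75.8 to 94.8 CPM against 47.4 to 57.3 CPM), with Hbb-bs the most abundant (0.83). The part of these cell types in the values of Cp, Trf, Hmox1, Slc40a1, ferritin and Epo was not tested.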

How the data were processed

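RNA of kidney cortex was sequenced as 51-bp single-end reads. Per the labels the build was mm9, and the study's methods name the Tuxedo tools; the counter and the use of strand are not given in the sources used here. The authors deposited raw read counts per gene and library, and RPKM values that are proportional to the count plus 1. Lengths behind the RPKM stood at 37.4 for Cp over Fth1, against 4.34 between their principal transcripts, so levels were instead computed as CPM per kilobase. The authors' 12 columns of log2 RPKM and their own fold changes and p-values were not used.

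Counts of the 2 kidneys were summed per mouse, filtered with filterByExpr, scaled by TMM and compared by the quasi-likelihood test of edgeR 4.0.16 in R 4.3.3. P-values of 19399 genes were adjusted by Benjamini-Hochberg. Totals were 21888584 to 33704850 reads per library. The test was checked on simulated data with a common dispersion for all genes and changes larger than any among the members. That check does not cover changes of the size seen here. Identifiers were matched to GENCODE M21 (GRCm38) for 32642 of 37681 genes. Mice are separate animals. Members and lists were chosen with earlier results of these data known. Named are all members, Hif1a and Epas1, the wider genes past the threshold, the 2 of lowest adjusted p per list, the 3 genes most like Cp, and the most abundant and called markers (1 called marker is not reported here), while Alas2, Egln2, Hfe, Hamp and markers too low to test were named after their values were seen. Alternatives were DESeq2 1.42.0, other scalings, no filter, single kidneys, a block for neighbouring mouse numbers, other limits and leaving out each mouse.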

Additional observations from a re-analysis of the deposited data

How the results depend on the processing

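Cp, Trf, Slc40a1, Hmox1 and Ftl1 kept their direction and an adjusted p below 0.05 in all 14 alternatives; Fth1 kept its direction and lost that limit in 9. Tfrc changed sign with library size alone (0.0392) and over the fits without 1 mouse (-0.2392 without TG- 43-76 to 0.1004 without TG- 43-26). Among the 10 members, leaving out 1 mouse gave 1 to 2 higher genes; 43-29, 43-75, 43-50 and 43-76 each cost Hmox1. Kidney 2 alone gave 3 higher members, Trf being the gain. An adjusted p below 0.05 without a fold limit gave 4 higher and 2 lower members, 18 higher and 29 lower genes of the wider lists, and 2982 higher and 2105 lower of all genes. At 0.01 without a fold limit 1 member was lower, 16 wider genes were higher and 13 lower, and 1534 genes were higher and 824 lower. Of all genes 732 were higher and 41 lower at the threshold of the study; library size alone gave 22 lower, and leaving out 1 mouse gave 469 (without 43-76) to 633 higher genes. The name of the deposited table lists neighbouring mouse numbers as pairs, and the study calls the TG- mice littermates. Deviations within these pairs correlated at 0.389, 0.33 and -0.0657. The replicate block for them gave 2 higher members, 9 higher wider genes, and 779 higher and 46 lower genes in all, and an adjusted p of 0.0659 for Fth1, the 1 member whose call it changed. The cause of these shifts was not tested. Epo had at most 160 reads per mouse.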

Other observations

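Haptoglobin (Hp), the plasma protein that binds free hemoglobin, varied widely among the mice of a genotype. It stood at 1.84, 5.45 and 7.99 CPM in TG+ and at 0.78, 2.36 and 0.51 CPM in TG-, so that the groups overlapped, with a log2 fold change of 2.04 (SE 0.64, edgeR quasi-likelihood adjusted p = 0.0509). Its macrophage receptor Cd163 was counted at 1.152, 2.56 and 2.17 CPM in TG+ and at 0.51, 0.93 and 0.53 CPM in TG- (1.57, adjusted p = 0.0151). Both genes were chosen after their values were seen.

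The 2 forms of the first enzyme of heme synthesis differed in spread. Alas1, the form of most tissues, ranged from 134.2 to 282.3 CPM in TG+ and from 200 to 235.0 CPM in TG- (log2 fold change -0.04, edgeR quasi-likelihood adjusted p = 0.921). Alas2, the erythroid form, was higher in every TG+ mouse, at 8.67, 10.2 and 8.27 CPM against 5.13, 5.90 and 5.08 CPM. The erythroid transcription factor Klf1 moved the other way, from 2.26, 2.66 and 2.54 CPM in TG- to 1.44, 1.199 and 1.67 CPM in TG+ (-0.79, adjusted p = 0.0111). These genes were also chosen after their values were seen.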
